A study of Mus musculus with 2 samples.

Results

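The autophagy and lysosome genes of mouse CD4 T cells were compared between a culture labelled pathogenic Th17 (pTh17) and a culture labelled non-pathogenic Th17 (npTh17). Members were taken by gene symbol alone. They were the numbered Atg genes, the Atp6v0 and Atp6v1 genes, the single-letter cathepsins, Lamp1 and Lamp2, and the Gabarap and Map1lc3 families. The Atp6v0 and Atp6v1 genes encode subunits of the proton pump, except Atp6v1fnb, a neighbour of Atp6v1f with no count in either library. Ulk1 to Ulk4, the mucolipins, Tfeb, Tfe3 and Sqstm1 were also taken. This gave 77 of the 22036 named genes in the count table. CD4 T cells of wild-type mice, from spleens and lymph nodes, were stimulated for 24 h through anti-CD3 (10 μg/mL) together with anti-CD28 (5 μg/mL). Both cultures held IL-6 at 20 ng/mL and antibodies that block IFNγ and IL-4. The pTh17 culture also held activin A at 20 ng/mL, and the npTh17 culture held recombinant human TGFβ1 at 2 ng/mL in its place. Each condition gave 1 library, so no value below has a replicate check, and every ratio compares these libraries only. The labels do not say how many mice or wells entered a library, nor the age, sex or strain of the mice. In such bulk RNA, fewer cells of a kind and less RNA per cell cannot be told apart.

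Autophagy delivers cytoplasm to the lysosome. The ULK kinase complex starts the process, ATG9 and ATG2 supply membrane, and ubiquitin-like conjugation enzymes attach proteins of the ATG8 family (LC3 and GABARAP) to the growing membrane, where they hold cargo receptors such as p62. In the lysosome, the V-ATPase, a rotary pump with a cytosolic V1 part that splits ATP and a membrane V0 part that carries protons, acidifies the lumen so that cathepsins and other hydrolases can work. The transcription factors TFEB and TFE3 bind an E-box in the promoters of many of these genes. In T cells, activation through the antigen receptor is known to engage autophagy, and lysosomal proteases also take part in cell death and in granule function.

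The letters of that E-box are shown because some of the members hold them. The choice by symbol did not use these letters, but they are already known from genes of this kind. Their share among the members is thus no new result. Promoters were RefSeq sequences of the GRCm38.p6 assembly, which mm10 also denotes, running from 250 bases before to 50 bases after a gene's RefSeq start. Such a start can lie inside the gene as annotated by GENCODE, whose gene positions are used below, as for Atp6v0e and Ctsa. Of the members, 63 were in the table, with 72 promoters. The 8 letters TCACGTGA, which read the same on both strands, stood in 7 of these 72 promoters (9.72%) and in 0.974% of all 32851 promoters. The shorter E-box CACGTG, which lies inside the longer motif, stood in 15 of the 72 (20.8%) and in 7.15% of all. A match is a description of the sequence and not a measured binding site. The windows of 30 bases around the longer motif are written 5′ to 3′ on the gene's strand, with the motif in capitals. They are chr16:45158746-45158775 (plus strand), chr8:105566050-105566079 (minus), chr17:26676387-26676416 (plus), chr16:44139373-44139402 (minus), chr2:164833749-164833778 (plus), chr2:164833766-164833795 (plus), chr7:142387908-142387937 (minus) and chr8:3500462-3500491 (plus), in the order printed.
Atg3: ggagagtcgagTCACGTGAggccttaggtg
Atp6v0d1: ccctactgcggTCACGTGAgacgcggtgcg
Atp6v0e: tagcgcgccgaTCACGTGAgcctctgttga
Atp6v1a: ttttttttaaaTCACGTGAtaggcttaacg
Ctsa, first motif: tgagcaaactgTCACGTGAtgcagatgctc
Ctsa, second motif: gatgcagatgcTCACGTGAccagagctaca
Ctsd: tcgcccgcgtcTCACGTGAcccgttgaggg
Mcoln1: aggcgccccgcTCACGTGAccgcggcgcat

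The 7 genes with the longer motif came from the conjugation enzymes, both parts of the proton pump, the cathepsins and the mucolipins. None of the promoters of the ATG8 family with Sqstm1, or of Tfeb and Tfe3, held even the short E-box. The core letters of a Foxo site, TGTTTAC on either strand, stood in 1 of the 72 promoters, that of Atp6v1b1, and in 3.65% of all promoters. Among measured members, the 14 with the short E-box had log2 ratios (pTh17 over npTh17) from −0.36 to 0.28 with a median of −0.19, 12 of them below 0. The 33 without it ran from −1.62 to 0.54 with a median of −0.10, 21 of them below 0. They included Atp6v0a1, whose start in this table lies inside the annotated gene, and Ctsw had no promoter there. Most genes of both groups thus had the lower level in pTh17, as did 50.6% of all genes tested. E-box genes outside the members were not compared. Ctsf, which also holds the short E-box, was under the level needed to be measured and is described with the low members.

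The depth was 30877656 counts in the pTh17 library and 33470161 in the npTh17 library, taken over named genes, and the members took 0.311% and 0.337% of them. The 6 T cell markers found by symbol summed to 1806 and 1913 CPM (counts scaled to a common library total). Cd4 had 6886 and 7683 counts, while Cd3e was 1.51-fold higher in npTh17 (1.46 to 1.56) and Cd3d 1.21-fold higher in pTh17 (1.15 to 1.27). The 6 genes of Th17 cultures summed to 1224 and 1324 CPM but differed one by one. Il23r was 3.69-fold and Il21 1.91-fold higher in pTh17, and Rora was 1.90-fold and Il17f 1.49-fold higher in npTh17. Myeloid cells and B cells carry far more cathepsin than resting T cells, so their markers were checked. The 11 macrophage and monocyte markers summed to 1.00 CPM in pTh17 and 0.898 in npTh17, with Csf1r, Adgre1, Cd14, Fcgr3 and the C1q genes at 0 in both. The near-equal sums came from different genes, since Mrc1 had 21 counts in pTh17 and 0 in npTh17, and Itgam had 0 and 24. The 7 dendritic cell markers summed to 0.129 and 0.838 CPM, 6.48-fold higher in npTh17 (2.27 to 25.4), with Flt3, Clec9a, Siglech and Cd209a at 0. Most of that sum was Itgax, at 0 and 20 counts. Among B cell markers, Cd79b had 11 and 0 counts, Cd79a 11 and 6, Ms4a1 3 and 0, and Pax5 and Ebf1 were at 0. Neutrophil markers summed to 0.550 and 0.898 CPM, with Ly6g at 5 and 17 counts, and erythroid markers to 2.36 and 3.38 CPM. So a few markers of other cells differed between the libraries at very low counts, and their part in the results was not tested. Ctsh, a cathepsin of those cells, also had no count in either library.

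At this depth, 57 of the 77 members were measured, meaning a mean of at least 1 CPM over the libraries, and they were close to equal between the cultures. None was 2-fold higher in pTh17, where 2.25% of the 10597 genes tested were. Only Atp6v0a1, a subunit of the proton pump, and Ctsw, a cathepsin of lymphocytes, were at least 2-fold higher in npTh17, which is 3.51% of the measured members against 1.95% of all genes. At 1.5-fold, Atg4c joined them, or 5.26% against 5.76%, and again no member was higher in pTh17, against 7.20% of all genes. In both directions together, 3.51% of members and 4.20% of all genes passed 2-fold, and 5.26% and 13.0% passed 1.5-fold. Among better measured genes, with a mean of 20 CPM or more, the same 2 of 43 members (4.65%) passed both folds, against 1.13% of 7059 genes at 2-fold and 6.13% at 1.5-fold. With 2 genes, these shares are no result about the members as a whole.

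Most measured members had the lower level in pTh17, by small differences. Of the 57, 41 had a log2 ratio below 0, meaning lower in pTh17, and 16 had one above 0, while 50.6% of all genes were below 0 and 49.4% above. The median log2 ratio of the members was −0.10, against −0.0045 for all genes tested. The central part of the members, from the first to the third quartile, ran from −0.23 to 0.023, and that of all genes from −0.20 to 0.21. The 95% counting interval of the ratio lay below 1 for 26 members and above 1 for 10, and it held 1 for the others. Such an interval covers counting error only. Of the 10597 genes tested, 3598 had one below 1 and 3496 one above 1, together 66.9%.

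**Figure D1:**
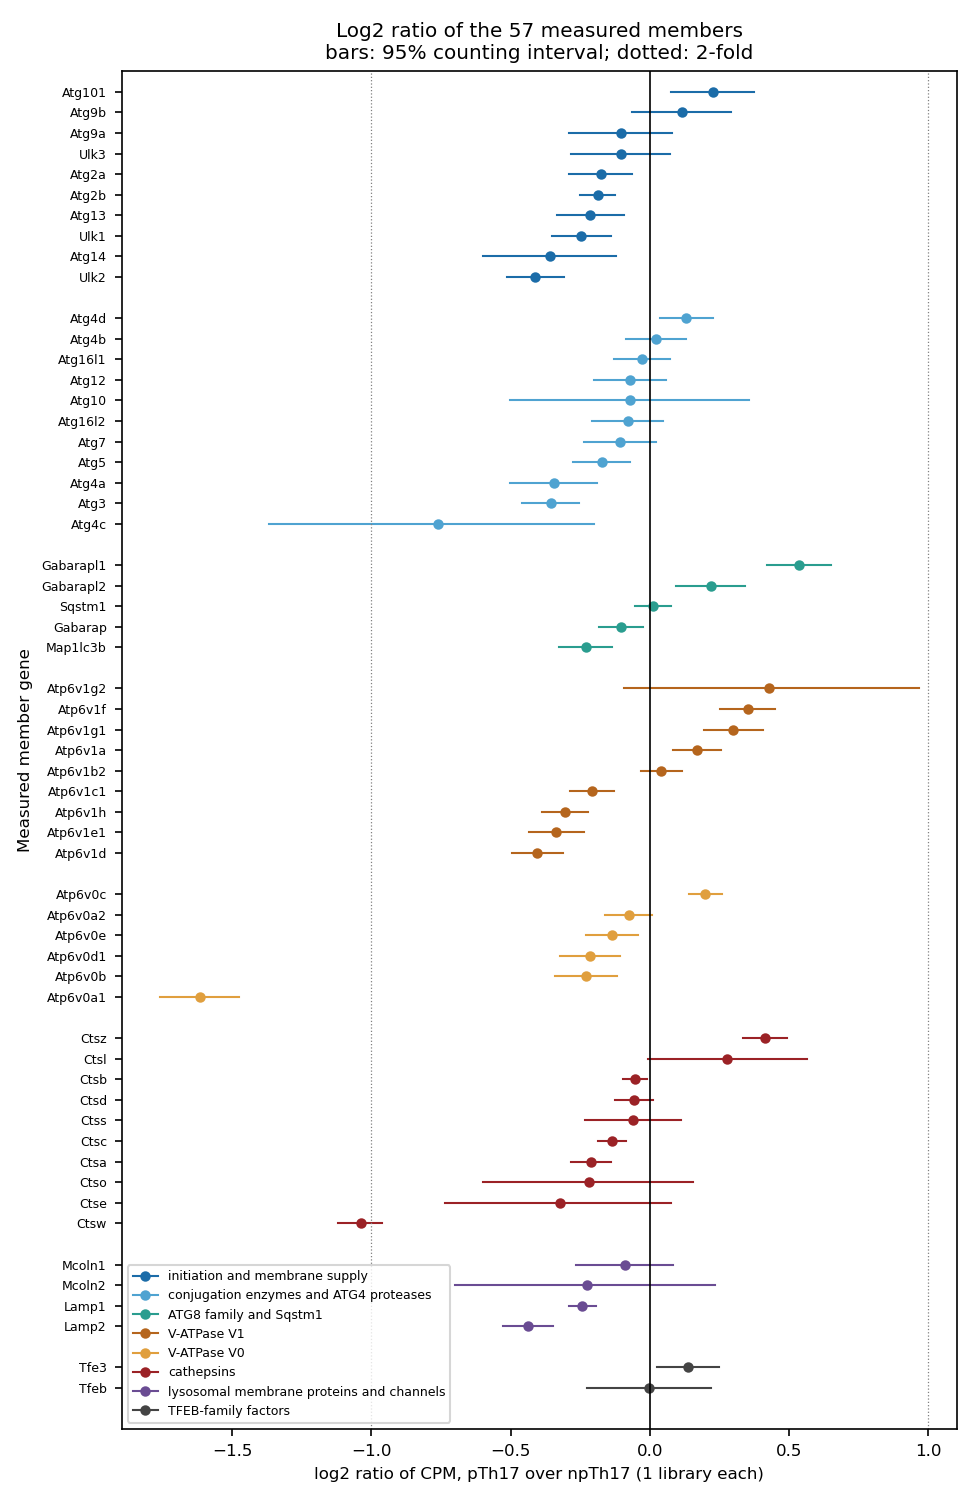
Log2 ratio of CPM (pTh17 over npTh17, horizontal axis) for each of the 57 measured members, ordered within its role. Points are ratios, bars are 95% counting intervals and dotted lines mark 2-fold. Atp6v0a1 at −1.62 and Ctsw at −1.04 lie past the left dotted line, and no gene lies past the right one.

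The starting machinery was slightly lower in pTh17. Of 10 measured genes for initiation and membrane supply, 8 had a log2 ratio below 0, and the median was −0.18. Ulk2, which encodes a kinase that opens the pathway, had 1337 counts in pTh17 and 1921 in npTh17, or 43.2 and 57.5 CPM. It was 1.33-fold higher in npTh17 (1.24 to 1.43, the 95% counting interval that follows each fold below). Its close relative Ulk1, at 1286 and 1648 counts, was 1.19-fold higher there (1.10 to 1.28), while Ulk3, at 493 and 573 counts, had an interval that held 1. Of the measured kinase genes, Ulk2 was thus the farthest from equality.

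Atg13, the scaffold of the ULK complex, had 1016 counts in pTh17 and 1273 in npTh17, a log2 ratio of −0.21. Its partner Atg101 went the other way, at 774 and 715 counts and 1.17-fold higher in pTh17 (1.06 to 1.30). Atg101 has a short transcript. Its log2 ratio of 0.23 was 0.025 after removal of a trend of the ratio on transcript length and GC content, fitted over all genes tested. Atg14, which targets the lipid kinase complex of autophagy, was 1.28-fold higher in npTh17 (1.09 to 1.51) on 351 counts against 253. The lipid transfer genes Atg2a and Atg2b had log2 ratios of −0.18 and −0.19, with 3653 counts of Atg2b in pTh17 and 4493 in npTh17. Atg9a and Atg9b, which encode lipid scramblases, had intervals that held 1. An exon of Atg14 overlaps an antisense RNA, and Atg9a, Atg2b and Atg9b also share bases with a neighbouring gene, so their reads may be divided.

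Conjugation enzymes and ATG4 proteases had a median log2 ratio of −0.080 over 11 genes, 9 of them below 0, and a mean of −0.17. All 7 conjugation genes were among those below 0. Atg3, which transfers ATG8 proteins to lipid, had 1357 counts in pTh17 and 1877 in npTh17 and was 1.28-fold higher in npTh17 (1.19 to 1.37). Atg5, part of the complex that helps that transfer, was 1.13-fold higher there (1.05 to 1.21), at 1398 and 1703 counts. The other genes of the conjugation chains had intervals that held 1. Atg7, which activates both chains, had 900 and 1047 counts. Atg12, Atg10, Atg16l1 and Atg16l2 had log2 ratios between −0.080 and −0.027.

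The ATG4 proteases, which trim ATG8 proteins and release them from lipid, did not share a direction. Atg4a was 1.27-fold higher in npTh17 (1.14 to 1.42), at 571 counts in pTh17 and 784 in npTh17. A near-identical copy, Atg4a-ps, had 26 and 18 counts and matches the Atg4a transcript at 99.3% over 2115 bases, so a few reads may be exchanged between them. Atg4b had 1331 and 1416 counts, a log2 ratio of 0.023, and Atg4d had 1812 and 1788 counts, at 0.13. Atg4d shares exonic bases with Kri1 on the opposite strand. Atg4c was the member past 1.5-fold, at 1.70-fold higher in npTh17, but on 40 and 74 counts, with a wide interval of 1.15 to 2.58. That interval held 1 (0.968 to 3.11) if each fragment had added 2 to the counts.

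In length-scaled terms Atg4c was also a minor protease. On the FPKM scale, which divides by transcript length and depth and so allows levels of different genes to be compared, it made up 1.38% of the ATG4 total in pTh17 and 2.22% in npTh17. Atg4a, Atg4b and Atg4d each made up between 28.7% and 36.1% in either library.

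Within the ATG8 family the members split. Gabarapl1, one of the GABARAP-type proteins, had 1465 counts in pTh17 and 1092 in npTh17, or 47.4 and 32.7 CPM, and was 1.45-fold higher in pTh17 (1.34 to 1.57). This was the highest log2 ratio of any measured member, at 0.54. Gabarapl2 was 1.16-fold higher in pTh17 (1.07 to 1.27), at 1121 and 1041 counts. Map1lc3b, which encodes the LC3 protein used to follow autophagosomes, went the other way, at 1586 and 2011 counts and 1.17-fold higher in npTh17 (1.10 to 1.25). Gabarap itself had 2389 and 2773 counts, a log2 ratio of −0.10. Gabarapl2 and Map1lc3b have near-identical processed pseudogenes, and an antisense RNA covers part of Gabarapl1, so reads of these genes are partly uncertain.

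The family total hardly moved, at 111 FPKM in pTh17 and 108 FPKM in npTh17, while its make-up shifted. Gabarap was the most abundant form in both, at 50.1 FPKM in pTh17 and 54.0 FPKM in npTh17. Gabarapl1 made up 20.7% of the family's FPKM in pTh17 and 14.6% in npTh17, and Map1lc3b 16.8% and 19.7%. Gabarapl1 ranked second in pTh17 and below Map1lc3b and Gabarapl2 in npTh17. Map1lc3a, the other LC3 gene of the table, was under 1 CPM, at 16 and 27 counts. Sqstm1, which encodes the cargo receptor p62, was level, with 3788 and 4059 counts, or 122 and 121 CPM, and a log2 ratio of 0.012. Part of its exons is shared with Mrnip on the opposite strand.

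**Figure D2:**
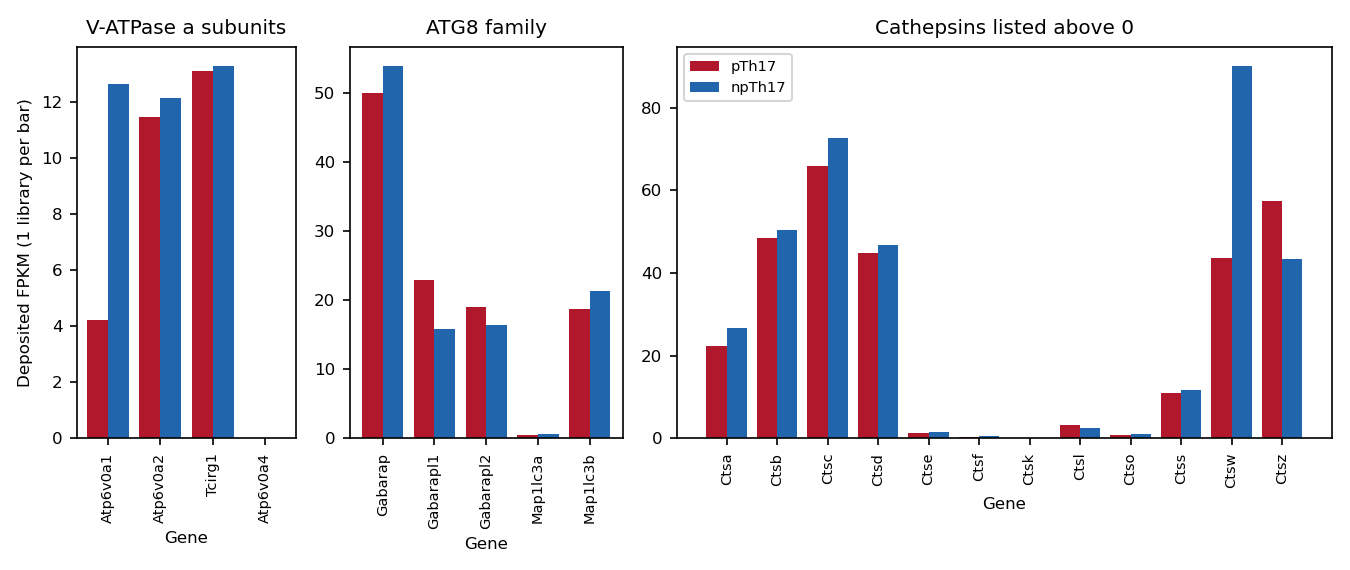
Deposited FPKM (vertical axis, from 0) of the V-ATPase a subunits, the ATG8 family and the cathepsins listed above 0, with 1 library per bar (red pTh17, blue npTh17). Atp6v0a1 stands at 4.20 against 12.6, Gabarapl1 at 23.0 against 15.8 and Ctsw at 43.7 against 90.2.

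The V1 part of the proton pump held genes on both sides of equality, with 5 of 9 measured subunits above 0, 4 below it and a median log2 ratio of 0.041. The sign of that median rests on Atp6v1g2, a G subunit isoform with 70 and 56 counts, since among subunits of at least 5 CPM it was −0.083. The catalytic subunit gene Atp6v1a was 1.13-fold higher in pTh17 (1.06 to 1.19), at 2222 counts in pTh17 and 2134 in npTh17. Its partner in the ATP-splitting ring, Atp6v1b2, was level at 2932 and 3080 counts. Of the subunits of the stalks and the regulatory arm, 4 were lower in pTh17 and 3 were not. Atp6v1d, in the central rotor, had 1654 and 2365 counts and was 1.32-fold higher in npTh17 (1.24 to 1.41). Atp6v1e1, of the peripheral stalks, was 1.26-fold higher there (1.18 to 1.35), Atp6v1h 1.23-fold (1.17 to 1.31) and Atp6v1c1 1.15-fold (1.09 to 1.22).

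Atp6v1f and Atp6v1g1, also of the rotor and the stalks, stood on the other side, as did the low Atp6v1g2, whose interval held 1. Atp6v1f had 1846 counts in pTh17 and 1563 in npTh17 and was 1.28-fold higher in pTh17 (1.19 to 1.37). Atp6v1g1 had 1548 and 1358 counts, at 1.23-fold (1.14 to 1.33). These are among the shortest members, at 806 and 1135 bases, and short transcripts as a whole leaned that way. Over all genes tested, the 3534 genes with the shortest transcripts (up to 2676 bases) had a median log2 ratio of 0.070, while the middle of the range had −0.040 and the longest −0.028. After removal of that trend, Atp6v1f had a log2 ratio of 0.033 in place of 0.35, and Atp6v1g1 had 0.16 in place of 0.30. Both also have near-identical processed pseudogenes.

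**Figure D3:**
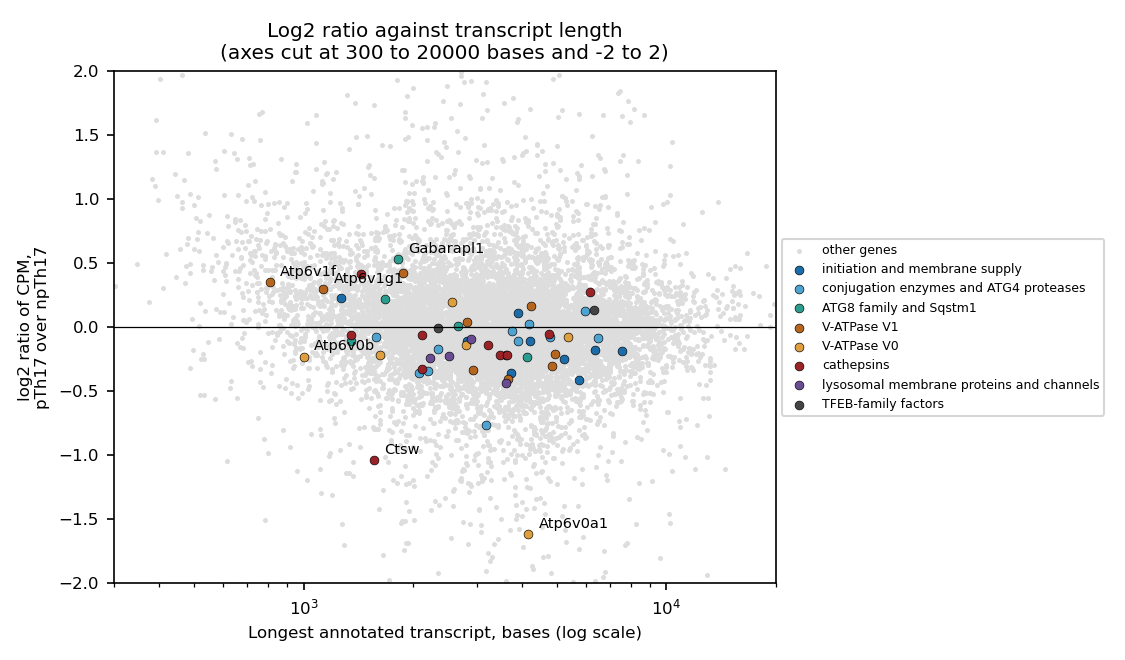
Log2 ratio of CPM (pTh17 over npTh17, vertical axis) against the longest annotated transcript (bases, log axis) for the 57 measured members by role, over all genes tested in grey. Atp6v1f and Atp6v1g1 sit above 0 at 806 and 1135 bases, and Atp6v0a1 at −1.62 has a transcript of 4162 bases.

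Atp6v0a1 was the member with the largest difference. It encodes the a1 isoform of the large membrane subunit of V0, which carries the proton half-channels and directs the pump to particular compartments (ENSMUSG00000019302, mm10 chromosome 11, 101009452 to 101063719, plus strand). It had 524 counts in pTh17 and 1738 in npTh17, or 16.9 and 52.0 CPM, and was 3.07-fold higher in npTh17 (2.78 to 3.39). Only 0.604% of all genes tested had a log2 ratio as low as its −1.62. The value was −1.59 by FPKM and −1.56 after removal of the trend. No annotated exon of another gene overlaps it, and no near-identical copy of its transcript was found.

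The other a isoforms did not share this difference. Atp6v0a2 had 2145 counts in pTh17 and 2443 in npTh17, a log2 ratio of −0.076 whose interval held 1. Tcirg1, the a3 isoform, which lies outside the symbol rule, had 1241 and 1358 counts, or 40.1 and 40.6 CPM. Atp6v0a4, the kidney isoform, had no count in either library. On the FPKM scale the 3 expressed isoforms were nearly equal in npTh17, with Atp6v0a1 at 33.2% of their total, Atp6v0a2 at 31.9% and Tcirg1 at 34.9%. In pTh17 Atp6v0a1 made up 14.6%, Atp6v0a2 39.9% and Tcirg1 45.5%. The summed FPKM of the a isoforms was 28.7 in pTh17 and 38.0 in npTh17.

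The other V0 subunits lay close to equality. Atp6v0c, the main proteolipid of the proton ring, had 4796 counts in pTh17 and 4516 in npTh17 and was 1.15-fold higher in pTh17 (1.10 to 1.20). It is the most abundant member by FPKM, at 115 and 101, and has pseudogene copies at up to 99.7% identity. Atp6v0b, another ring subunit, was 1.17-fold higher in npTh17 (1.08 to 1.27), Atp6v0d1, which links the ring to the central stalk, 1.16-fold (1.08 to 1.25) and Atp6v0e 1.10-fold (1.03 to 1.17). For Atp6v0b, removal of the trend gave a log2 ratio of −0.49 in place of −0.23. The median over the 6 measured V0 genes was −0.17. Summed over all genes of the class, V0 counts came to 375 CPM in pTh17 and 412 CPM in npTh17, and V1 counts to 523 and 547 CPM.

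Cathepsins, the lysosomal proteases, were abundant and mostly alike in the libraries. Of 10 measured genes, 8 had a log2 ratio below 0, with a median of −0.099. Ctsb, a cysteine protease, had 8107 counts in pTh17 and 9094 in npTh17, or 262 and 272 CPM, the largest counts of any member. Ctsd, the main aspartic protease, had 3363 and 3782 counts, and its interval held 1. Ctsc, the dipeptidyl peptidase that activates granule serine proteases, was 1.10-fold higher in npTh17 (1.06 to 1.14), at 5877 and 6985 counts. Ctsa, a carboxypeptidase, was 1.16-fold higher there (1.10 to 1.22).

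Ctsw stood apart from them. It encodes cathepsin W, a cysteine protease known from cytotoxic T cells and NK cells (ENSMUSG00000024910, mm10 chromosome 19, 5465043 to 5468507, minus strand). It had 1900 counts in pTh17 and 4221 in npTh17, or 61.4 and 126 CPM, and was 2.06-fold higher in npTh17 (1.95 to 2.17). By FPKM it was the most abundant cathepsin in npTh17, at 90.2 against 72.6 for Ctsc, and in pTh17 it stood below Ctsc, Ctsz, Ctsb and Ctsd, at 43.7. It made up 26.0% of the cathepsins' FPKM in npTh17 and 14.6% in pTh17. Its exons share 9 bases with Fibp on the opposite strand, which had 599 and 581 counts.

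Because cathepsin W marks cytotoxic cells, their markers were set beside it. Cd8a had 8 counts in each library and Cd8b1 had 51 in pTh17 and 55 in npTh17, and together they came to 1.91 and 1.89 CPM. Of 5 NK markers, Ncr1, Klrb1c and Gzma had no count in either library, and Eomes had 2 and 0 counts. Klrd1, an NK receptor gene that activated T cells also use, had 47 and 98 counts and so moved with Ctsw. The 5 summed to 1.58 and 2.93 CPM. Its part in that result was not tested.

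Ctsz ran against the class. This carboxypeptidase gene had 2925 counts in pTh17 and 2372 in npTh17, or 94.6 and 71.0 CPM, and was 1.33-fold higher in pTh17 (1.26 to 1.41). Its log2 ratio was 0.41, and 0.25 after removal of the trend. Ctsl, another cysteine protease, had 220 and 196 counts and a log2 ratio of 0.28 whose interval held 1, and an antisense RNA covers part of it. Ctss, which cuts the invariant chain in antigen-presenting cells, had 529 and 596 counts. Ctse and Ctso were low, at 136 counts or fewer in each library, and their intervals held 1. The leading cathepsins of pTh17 by FPKM were Ctsc and Ctsz, at 66.0 and 57.5, against 72.6 and 43.3 in npTh17.

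**Figure D4:**
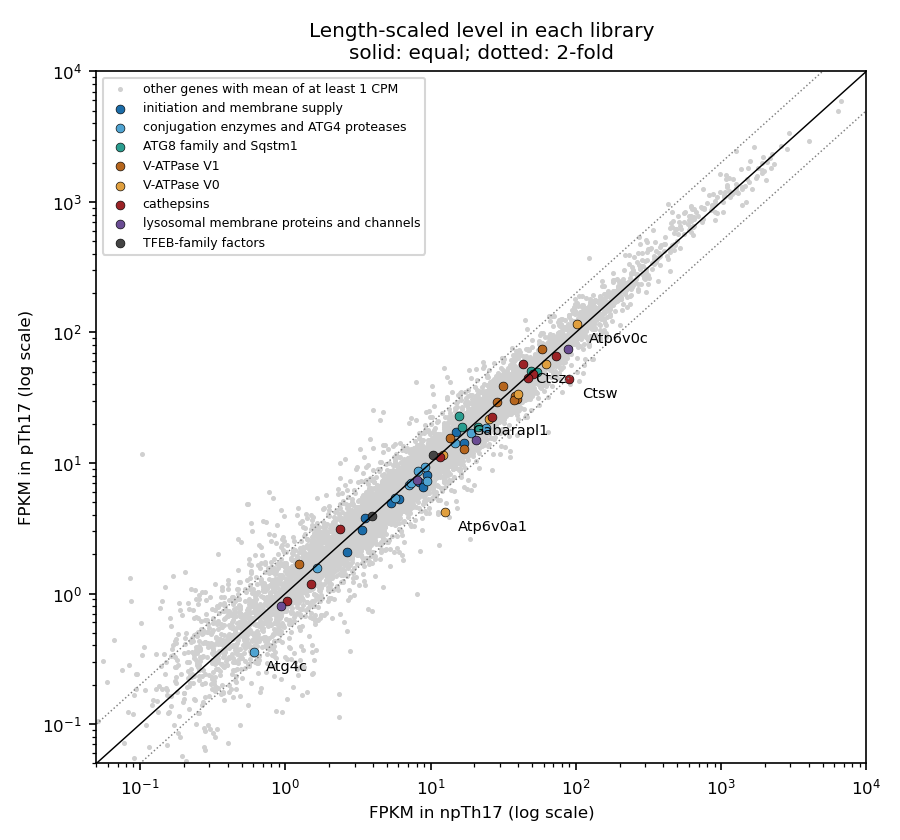
Deposited FPKM in pTh17 (vertical) against npTh17 (horizontal), both on log axes, for the measured members by role, over the other genes tested in grey. The solid line marks equal levels and the dotted lines 2-fold. Most members follow the solid line from under 1 to over 100 FPKM, and Atp6v0a1 and Ctsw lie under the lower dotted line.

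All 4 measured genes of lysosomal membrane proteins and channels had a log2 ratio below 0, with a median of −0.23. Lamp1 and Lamp2 encode the heavily glycosylated proteins that line the lysosomal membrane. Lamp2 had 1711 counts in pTh17 and 2506 in npTh17 and was 1.36-fold higher in npTh17 (1.27 to 1.44). Lamp1 had 5883 and 7521 counts, at 1.18-fold (1.14 to 1.22). The mucolipins, calcium channels of the lysosome, had intervals that held 1. Mcoln1 had 513 and 590 counts and made up 87.9% of mucolipin FPKM in pTh17 and 86.9% in npTh17, and Mcoln2 had 71 and 90 counts.

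The regulators of the class had ratios close to 1. Tfeb had 324 counts in pTh17 and 351 in npTh17, or 10.5 CPM in each, a log2 ratio of −0.0035 (−0.23 to 0.22). After removal of the trend it was −0.12. Tfe3 had 1323 and 1300 counts and was 1.10-fold higher in pTh17 (1.02 to 1.19). Tfe3 had the higher level of the pair on the length-scaled measure, at 11.5 and 10.5 FPKM against 3.91 and 3.93 for Tfeb. These are transcript levels, and TFEB and TFE3 are known to be controlled largely by phosphorylation and entry into the nucleus, which was not measured here.

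The remaining 20 members were under 1 CPM. Of these, 10 had no count in either library, a level of at most 0.0970 CPM in pTh17 and 0.0898 CPM in npTh17 by the limit of 3 counts. They were Atp6v0a4, Atp6v1b1, Atp6v1e2, Atp6v1fnb, Ctsg, Ctsh, Ctsj, Ctsm, Ctsq and Ctsr, among them pump isoforms known from kidney or testis and cathepsins known from placenta. Ctsf, a cysteine protease, had 13 counts in pTh17 and 44 in npTh17, and was 2.99-fold higher in npTh17 (1.66 to 6.34). Ulk4, a pseudokinase gene, had 31 and 16 counts, 2.03-fold higher in pTh17 (1.11 to 4.10), and overlaps Ctnnb1 on the opposite strand over 759 bases, which had 8786 and 10219 counts. Ctsk, the osteoclast collagenase, had 6 counts in pTh17 and 0 in npTh17, at least 2.16-fold higher against the limit of 3 counts. Its counting interval starts at 1.27-fold. Atp6v0d2 had 0 and 5 counts, at least 1.54-fold higher in npTh17, with an interval that starts below 1. The other 6 had between 0 and 33 counts in a library, and their intervals held 1. They were Map1lc3a (16 and 27 counts), Mcoln3 (25 and 33), the pseudogene Atg4a-ps, and the pump isoforms Atp6v0e2 (3 and 8), Atp6v1c2 (1 and 0) and Atp6v1g3 (3 and 3).

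The libraries also held the other genes of the pathway, from lists that do not overlap the members. Of 38 measured autophagy genes, 27 had a log2 ratio below 0, and the median was −0.11. Tax1bp1, a cargo receptor gene, was 1.53-fold higher in npTh17 (1.47 to 1.59), at 4554 counts in pTh17 and 7527 in npTh17. Snap29, which serves in the fusion of autophagosomes with lysosomes, was 1.53-fold higher there (1.42 to 1.66). Optn, another cargo receptor gene, ran the other way at 2.34-fold higher in pTh17 (1.57 to 3.69), on 75 and 34 counts. Calcoco1 and Nbr1, further receptor genes of the list, were 1.49-fold (1.27 to 1.75) and 1.18-fold (1.10 to 1.26) higher in npTh17. Tollip, also a receptor gene of the list, had a log2 ratio of 0.068 whose interval held 1. Bnip3, Bnip3l and Fundc1, known as receptor genes for mitochondria, were also higher in npTh17. Their folds were 1.33 (1.20 to 1.47), 1.20 (1.13 to 1.26) and 1.24 (1.14 to 1.35). Of the receptor genes named in this paragraph, only Optn, on low counts, had an interval on the side of pTh17. Sh3glb1, which shapes autophagic membrane, had a log2 ratio of −0.43.

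Lysosomal hydrolases outside the cathepsins had a median of −0.12 over 39 genes, 25 of them below 0 and none past 2-fold. Tpp1, a tripeptidyl peptidase, had 1574 counts in pTh17 and 2662 in npTh17 and was 1.56-fold higher in npTh17 (1.47 to 1.67). Arsb, a sulfatase, had a log2 ratio of −0.61 and Rnaset2a, a ribonuclease, −0.58. By FPKM the value of Rnaset2a was −0.42. Near-identical copies were searched for members only, not for genes of these lists. Galc, which degrades galactosylceramide, was 1.54-fold higher in pTh17 (1.32 to 1.80), at 399 and 280 counts.

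Genes of the lysosomal membrane and of transport had a median of −0.049 over 29 genes, with 21 below 0. The pair that exports cholesterol from the lysosome went opposite ways. Npc1, the membrane transporter, had 1096 counts in pTh17 and 1862 in npTh17 and was 1.57-fold higher in npTh17 (1.46 to 1.70). Npc2, the soluble carrier, had 4770 and 3449 counts and was 1.49-fold higher in pTh17 (1.43 to 1.56). Laptm5, a lysosomal protein of blood cells, had 6830 and 11100 counts and a log2 ratio of −0.59, and its relative Laptm4b was 2.20-fold higher in pTh17 (1.69 to 2.91) on 170 and 83 counts.

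TFEB relatives and regulators had no common direction. Their median was 0.074 with 11 of 17 genes above 0, but 6 intervals lay above 1 and 6 below. Their summed counts were lower in pTh17, at 2960 against 3065 CPM. The largest part of both sums was a single gene, Hif1a, at 1061 CPM in pTh17 and 1166 in npTh17, so the sums mostly do not describe the TFEB relatives. Lamtor4 and Lamtor2, subunits of the complex that anchors mTORC1 to the lysosome, had log2 ratios of 0.87 and 0.46, with 321 counts of Lamtor4 in pTh17 and 190 in npTh17. Rragd, a GTPase gene that is itself a known TFEB target, was 1.35-fold higher in npTh17 (1.23 to 1.47), and Rragc had a log2 ratio of −0.20. Of 7 measured genes for protease inhibitors, Serpinb1a, which inhibits neutrophil serine proteases, was 3.21-fold higher in npTh17 (2.61 to 4.03), at 110 and 384 counts. Cst3, which encodes the cathepsin inhibitor cystatin C, had a log2 ratio of 0.30, Spint2 had 0.32 and Serpinb6a had −0.44. The median of that list, 0.15, and its mean, −0.11, differ in sign.

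**Figure D5:**
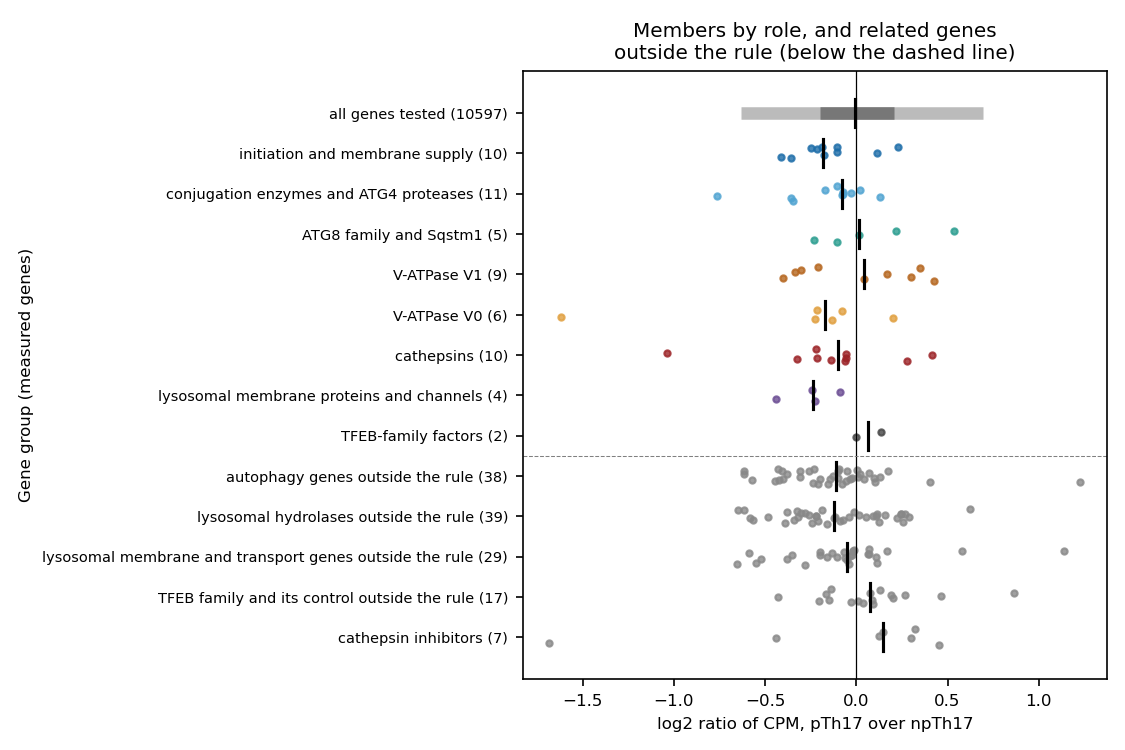
Log2 ratio of CPM (pTh17 over npTh17, horizontal axis) for measured members by role and, below the dashed line, for lists of related genes, with the number of genes in brackets. Points are genes and black ticks medians. The top bars show all 10597 genes tested, the dark bar from the 25th to the 75th percentile and the light bar from the 5th to the 95th. Medians of the lists with more than 9 genes lie between −0.18 and 0.074, and those of the smaller lists between −0.23 and 0.15.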

How the data were processed

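RNA of 2 mouse CD4 T cell cultures was sequenced, with 1 library per condition. The authors deposited whole-number counts per gene and, for the same rows, FPKM values, per the file headers. The submitters' processing notes name mm10 as the build. Aligner, counter and annotation: not given in the sources used here.

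Rows with no gene name, 2.50% of counts in pTh17 and 2.90% in npTh17, were left out. Totals were scaled by TMM factors (edgeR 4.0.16, R 4.3.3). Log2 ratios and folds are of CPM with a prior count of 1. Intervals are exact Clopper-Pearson intervals at 95% on the counts (scipy 1.17.1), and like the limit of 3 counts they cover counting error only. Counts of 2 were 3.42 and 4.37 times as frequent as counts of 1, so a fragment may have added more than 1 and intervals may be too narrow. No test between the conditions was made. Counts and medians used a mean minimum of 1 CPM.

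Members and lists were chosen with earlier results of these data known. The naming rule took members at least 1.5-fold different. It also took the 4 per role whose interval lay farthest from 1 and the 2 per role most abundant by FPKM. From each related list it took up to 4 genes by the interval rule. Counts, fold and interval are not all printed for each of these genes. Other members, Tcirg1, Calcoco1, Nbr1, Tollip, Bnip3, Bnip3l, Fundc1, Hif1a and the markers were named after their values were seen. The T cell receptor constant genes were not matched by symbol. Positions, overlaps and lengths are from GENCODE M21 (mm10), and copies from BLAST 2.17.0 at 95% identity. The calculation of ratios and intervals was checked on simulated counts. Alternatives covered scaling, prior count, filter, FPKM and a length and GC trend. A marker gene is not reported here.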

Additional observations from a re-analysis of the deposited data

How the results depend on the processing

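The member counts past the folds depended on the filter for low counts. With no filter, which admits 67 members, 3 were at least 2-fold higher in pTh17 and 5 in npTh17, and 4 and 7 at 1.5-fold, against 0, 2, 0 and 3 with the filter. The share of all genes past each fold with no filter is not given here, so these numbers are no result about the members. The added members had at most 44 counts in a library. Under the other scalings, prior counts, filter, FPKM and the length and GC trend, these counts stayed within 1.5 times, and the median log2 ratio of the members ran from −0.13 to −0.099. It ran from −0.12 to −0.090 with each role left out in turn. Between 40 and 41 of the 57 members were below 0 under every alternative that kept all 57. For members named by the rule, ratios were recomputed under settings that can change a ratio (filters cannot). Of these ratios, 263 stayed inside their counting interval and 9 moved outside it, all after removal of the length and GC trend. No ratio at least 1.5-fold from 1 changed sign. Members named outside the rule were not in this tally. Among them, Atp6v1g1 and Ctsd (−0.13) also moved outside their intervals after that removal. The median of the ATG8 family with Sqstm1 was −0.022 after that removal and −0.045 with no filter, in place of 0.012. Besides the ratios given above, the ratios that moved were −1.16 for Ctsw, −0.22 for Gabarap, −0.33 for Lamp2, −0.19 for Atp6v1h and −0.046 for Ctsc. If each fragment had added 2 counts, 31 in place of 36 member intervals would leave out 1. Depth limits what can be said of the 20 members under 1 CPM. No paired analysis was possible because each condition has 1 library, and none could be left out.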
